A study of Mus musculus with 10 samples.

Results

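The Hox clusters and their cofactors were followed through 2 populations of blood progenitors from Dnmt3a knockout (KO) and control (CTRL) mice. The set lists 38 genes: 10 of the Hoxa cluster, 10 of Hoxb, 6 of Hoxc, 6 of Hoxd, and the cofactor genes Meis1, Meis2, Meis3, Pbx2, Pbx3 and Pbx4. It was chosen by gene name, with earlier results of these data known, and 37 of the 38 were found among the 38086 gene IDs that both count tables hold. The exception, Hoxd4, was in the LSK table alone, with 0 reads.

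RNA was sequenced from LSK cells (lineage-negative, Sca1+ and cKit+), the gate that holds the haematopoietic stem cells and early multipotent progenitors, and from GMP, the granulocyte-macrophage progenitors gated as cKit+, CD34+ and FcgR+ without Sca1 or lineage markers, both sorted from the bone marrow of C57BL/6 mice aged 12 months. KO mice had the genotype cKO_Mx+, floxed Dnmt3a with an Mx1-Cre transgene, and each population had 3 KO libraries. CTRL mice had the genotype cKO_Cre-, the same floxed alleles without Cre, and each population had 2 CTRL libraries. Mx1-Cre, an interferon-responsive transgene, is switched on by poly(I:C), a double-stranded RNA analogue. The labels give the same 5 injections for KO and CTRL mice, so the groups share that exposure, while effects of the deletion and of Cre itself cannot be told apart. A library is called by its genotype and title number, as in KO-178.

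Hox genes encode homeodomain transcription factors and lie in clusters in which gene order follows the order of use along the body axis, from the anterior (low-numbered) to the posterior (high-numbered) end. MEIS and PBX proteins are homeodomain factors of the TALE class that bind DNA together with HOX proteins. In blood, Hoxa9 and Meis1 are known for their high expression in stem cells and for driving leukaemia when they stay on, and Hoxb4 for expanding stem cells when it is forced on. DNMT3A, a de novo DNA methyltransferase, adds methyl groups to cytosines followed by guanine (CpG), and its loss in blood stem cells is a frequent early step towards human myeloid leukaemia.

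The sequences below are the 250 bases upstream of the RefSeq start (GRCm38.p6, written in the direction of transcription), with every CpG in capitals. They are shown for the Hoxa and Hoxb genes and the Meis gene with the most reads here, and for Hoxa13, which had 0 reads in all 10 libraries. Methylation of these bases was not measured.
Hoxa7 (chr6:52218574-52218823, minus strand): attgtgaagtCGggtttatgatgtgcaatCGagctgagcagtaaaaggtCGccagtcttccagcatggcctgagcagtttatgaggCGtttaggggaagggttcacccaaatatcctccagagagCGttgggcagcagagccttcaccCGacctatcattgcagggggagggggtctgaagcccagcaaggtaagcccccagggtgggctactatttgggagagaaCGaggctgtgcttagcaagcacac
Hoxa9 (chr6:52227371-52227620, minus strand): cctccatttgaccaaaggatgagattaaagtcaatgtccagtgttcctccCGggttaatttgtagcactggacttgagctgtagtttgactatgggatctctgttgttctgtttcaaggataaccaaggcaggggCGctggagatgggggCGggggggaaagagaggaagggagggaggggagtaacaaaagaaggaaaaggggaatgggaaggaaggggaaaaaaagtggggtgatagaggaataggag
Hoxa10, outer start (chr6:52240855-52241104, minus strand): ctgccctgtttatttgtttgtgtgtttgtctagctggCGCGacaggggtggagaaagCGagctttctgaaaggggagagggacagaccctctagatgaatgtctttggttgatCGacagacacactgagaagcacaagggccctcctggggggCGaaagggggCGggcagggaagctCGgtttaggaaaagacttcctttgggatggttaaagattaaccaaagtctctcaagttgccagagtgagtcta
Hoxa10, inner start (chr6:52234940-52235189, minus strand): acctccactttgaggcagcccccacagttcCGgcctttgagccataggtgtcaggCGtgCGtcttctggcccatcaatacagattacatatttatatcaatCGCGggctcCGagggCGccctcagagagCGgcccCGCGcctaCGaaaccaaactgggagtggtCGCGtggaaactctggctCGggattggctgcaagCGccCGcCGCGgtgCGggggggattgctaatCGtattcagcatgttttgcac
Hoxa13 (chr6:52260881-52261130, minus strand): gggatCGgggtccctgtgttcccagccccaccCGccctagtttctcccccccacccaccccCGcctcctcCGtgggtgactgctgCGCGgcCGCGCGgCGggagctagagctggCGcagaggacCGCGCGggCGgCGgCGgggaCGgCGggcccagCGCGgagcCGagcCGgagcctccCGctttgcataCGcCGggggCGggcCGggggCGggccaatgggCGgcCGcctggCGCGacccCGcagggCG
Hoxb4 (chr11:96318017-96318266, plus strand): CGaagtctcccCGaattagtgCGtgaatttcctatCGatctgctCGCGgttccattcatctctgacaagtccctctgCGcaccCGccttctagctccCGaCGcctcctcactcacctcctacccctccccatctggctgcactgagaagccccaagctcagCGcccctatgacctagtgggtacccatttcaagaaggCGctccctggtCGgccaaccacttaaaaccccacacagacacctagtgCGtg
Meis1 (chr11:19018970-19019219, minus strand): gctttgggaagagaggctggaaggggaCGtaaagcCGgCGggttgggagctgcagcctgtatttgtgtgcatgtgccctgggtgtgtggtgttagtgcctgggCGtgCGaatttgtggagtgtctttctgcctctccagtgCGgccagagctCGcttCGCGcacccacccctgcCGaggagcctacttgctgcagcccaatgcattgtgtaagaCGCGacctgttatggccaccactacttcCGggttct

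The Hoxa9 window held 3 CpGs, the Hoxa7 window 7, and the Hoxa10 windows 7 and 20. The Hoxa13 window of the silent end of the cluster held 35, the most among the 25 windows of 24 members in the table. The median was 12 CpGs over the member windows and 6 over the 32851 windows of all genes. The RefSeq starts of Hoxa7, Hoxa9 and the inner start of Hoxa10 lie inside the genes as GENCODE draws them. A PBX-HOX composite motif, searched as TGATNNAT on both strands, occurred in 3 member windows (Hoxa2, Hoxb1 and Hoxb8), and in 7.7% of all windows. The MEIS motif TGACAG, also searched on both strands, occurred in 2 member windows (Hoxa2 and Hoxa3), and in 15.9% of all windows. The windows printed here held neither motif.

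GMP libraries held 93850256 to 122658636 reads on genes and LSK libraries 29533371 to 30437981, so a level of 3 reads over a group corresponds to 0.0105 CPM (counts scaled to library size) in GMP KO and 0.0445 CPM in LSK CTRL. All levels are CPM on 1 scale for the 10 libraries. Dnmt3a was at 55.5, 51.2 and 57.1 CPM in LSK KO, against 151 and 145 CPM in LSK CTRL, and fell in edgeR's quasi-likelihood test (log2 fold change -1.43 ± 0.08 SE, adjusted p = 1.06e-04). In GMP it was at 51.7, 65.9 and 20.5 CPM in KO, against 143 and 115 CPM in CTRL, which did not pass (-1.5 ± 0.42, adjusted p = 0.300). Dnmt3a reads thus remained in every KO library, and their origin was not tested. The gates matched their markers: 7 stem cell markers (Ly6a, Kit, Procr, Hlf, Mecom, Slamf1 and Tek) summed to 1073 to 1373 CPM in LSK and 244 to 313 CPM in GMP, and 8 GMP markers (Mpo and Elane among them) to 1946 to 2560 CPM in LSK and 16161 to 26279 CPM in GMP. The description field of GMP library KO-352 refers to LSK data, but its sums, 256 and 22151 CPM, lay with the GMP libraries. By Xist and Y-linked counts LSK libraries KO-1327 and CTRL-1326 came from males and KO-1333, KO-1334 and CTRL-1330 from females. The sex of the GMP libraries is not given here. Of these 5 sex-linked genes, 4 had positive changes in GMP KO against CTRL, and 0 were called, where 0.0231% of all genes were called higher. In edgeR's test 2 had an unadjusted p under 0.05, where 13.8% of all genes did. For 3 of the 5 the KO libraries lay wholly above the CTRL libraries, where 17.7% of all genes did so. A difference in sex between the GMP genotypes was not tested.

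Expression was concentrated in the middle of the Hoxa cluster, in Hoxb4, and in Meis1 and the Pbx genes, while most Hoxc and all Hoxd members were at or near 0. A group mean of 1 CPM or more was reached by 15 members: Hoxa3, Hoxa5, Hoxa6, Hoxa7, Hoxa9 and Hoxa10, Hoxb2 to Hoxb6, Meis1, and all 3 Pbx genes. A further 8 (Hoxa2, Hoxa4, Hoxb7, Hoxb8, Hoxb9, Hoxc6, Meis2 and Meis3) reached a group mean between 0.1 and 1 CPM. In 8 members (Hoxa11, Hoxc4, Hoxc5, Hoxc8, Hoxc9, Hoxc10, Hoxd3 and Hoxd8) every group mean was under 0.1 CPM. The last 6 of the 37, Hoxa13, Hoxb1, Hoxb13, Hoxd1, Hoxd9 and Hoxd10, had no read in any of the 10 libraries. By group, 15 members reached 1 CPM in LSK KO, 14 in LSK CTRL, 8 in GMP KO and 7 in GMP CTRL.

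Per kilobase of exon the Hoxa levels peaked at Hoxa9 and dropped off sharply on its posterior side. In LSK KO the anterior genes Hoxa2, Hoxa3 and Hoxa4 stood at 0.475 ± 0.085, 0.792 ± 0.029 and 0.438 ± 0.088 CPM per kb (SD, n = 3). From there the levels per kb were 4.18 ± 0.83 for Hoxa5, 5.61 ± 0.60 for Hoxa6, 8.71 ± 0.56 for Hoxa7 and 11.6 ± 0.53 for Hoxa9. Beyond the peak Hoxa10 was at 4.75 ± 0.32 CPM per kb, Hoxa11 had 1 read in the 3 LSK KO libraries together, and Hoxa13 had 0. LSK CTRL had the same peak, with Hoxa9 at 12.1 ± 0.10 and Hoxa7 at 9.0 ± 0.27 CPM per kb (SD, n = 2). In GMP the peak was lower and narrower. Hoxa9 was at 4.62 ± 1.21 CPM per kb in GMP KO and 2.63 ± 0.34 in GMP CTRL, and Hoxa7 at 3.25 ± 0.29 in GMP KO and 2.04 ± 0.35 in GMP CTRL. No other Hoxa gene reached 1 CPM per kb in GMP.

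The Hoxb cluster had a single peak, at Hoxb4. Its level was 3.59 ± 0.44 CPM per kb in LSK KO, 3.12 ± 0.69 in LSK CTRL, 2.44 ± 0.13 in GMP KO and 2.24 ± 0.43 in GMP CTRL (SD). Its neighbours Hoxb3 and Hoxb5 were at 0.655 ± 0.067 and 0.640 ± 0.13 CPM per kb in LSK KO, and no other Hoxb gene reached 1 CPM per kb in any group. Among the cofactors Meis1 stood highest, at 25.4 ± 1.1 CPM per kb in LSK KO and 24.3 ± 1.3 in LSK CTRL, and Pbx2 was at 17 ± 0.6 and 16.8 ± 0.9. In GMP the order of these cofactors was the other way round, with Pbx2 at 15.1 ± 1.2 CPM per kb in GMP KO and 18.8 ± 0.74 in GMP CTRL, and Meis1 at 2.99 ± 0.34 and 2.61 ± 0.36.

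**Figure D1:**
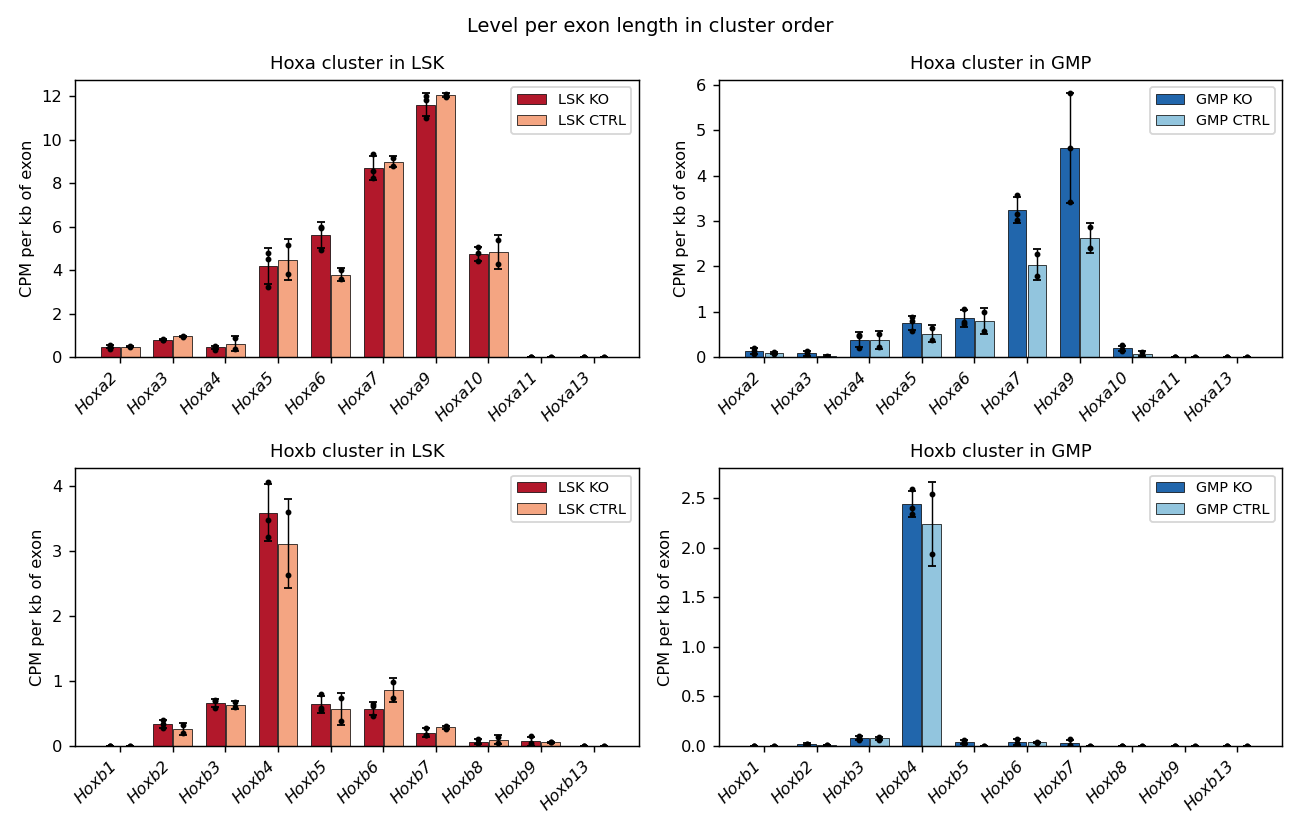
Mean level in CPM per kb of exon of each Hoxa (upper row) and Hoxb gene (lower row) in cluster order, in LSK (left) and GMP (right), with KO and CTRL side by side; bars are means, error bars SD (n = 3 KO and 2 CTRL), dots single libraries. Levels peak at Hoxa9 and at Hoxb4 in all 4 groups, and the y axes differ between panels.

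Hoxa9 made up 45.9% ± 1.9 of all Hox reads in LSK KO and 46.7% ± 1.5 in LSK CTRL, and 55.4% ± 3.7 in GMP KO and 49.7% ± 3.0 in GMP CTRL (SD). Hoxb4 made up 6.50% ± 0.58 and 5.54% ± 1.09 in LSK KO and LSK CTRL, and 13.9% ± 2.4 and 19.7% ± 5.0 in GMP KO and GMP CTRL. Hoxa10 made up 11.0% ± 0.96 in LSK KO and 11.0% ± 2.0 in LSK CTRL, but 1.33% ± 0.16 in GMP KO and 0.745% ± 0.566 in GMP CTRL. Shares add up to a whole, so a gene's share also moves with the other Hox genes. The summed level of all Hox members was 141 ± 5.9 CPM in LSK KO and 144 ± 3.4 in LSK CTRL, against 46.1 ± 9.2 in GMP KO and 29.5 ± 2.0 in GMP CTRL.

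Most expressed members were higher in LSK than in GMP, in KO as in CTRL mice. Meis1 and the tested Hoxa genes other than Hoxa4 rose in both genotypes, while Hoxa4, Hoxb4, Pbx2 and Pbx3 differed least. Of 23 members tested in KO, 21 rose in LSK against GMP and 0 fell, where 30.7% of the 18836 genes tested were called higher and 30.1% lower. Of the same 23 in CTRL, 17 rose and 0 fell, where 28.2% of all genes were called higher and 27.3% lower. Every LSK library lay above every GMP library for 21 members in KO and 21 in CTRL. Among all 18836 genes, 6675 did so in KO and 7869 in CTRL. The filter on low counts let 9 of the 23 in through their LSK reads alone, so these had to be higher in LSK. They were Hoxb2, Hoxb5, Hoxb6, Hoxb7, Hoxb8, Hoxb9, Hoxc6, Meis2 and Meis3. Among the 14 that passed in the GMP libraries alone, 12 rose in KO and 10 in CTRL, with a median log2 fold change of 1.63 and 2.23, beside 0.08 and 0.12 over all genes. Population goes together with count table, annotation and depth in these comparisons, and these cannot be told apart from the cells. The sex of the animals may differ as well: of 5 sex-linked genes, 1 was called higher in LSK and 4 had negative changes, in each genotype. Fewer expressing cells and less RNA per cell cannot be told apart in bulk RNA either.

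Hoxa7, Hoxa9 and Hoxa10 carried most of the Hoxa reads. Hoxa9 (ENSMUSG00000038227, chr6:52223100-52231089, minus strand), the most abundant Hox gene, was at 67.1, 61.5 and 65.9 CPM in LSK KO, 67.7 and 66.9 in LSK CTRL, 25.7, 32.5 and 19.1 in GMP KO, and 16.0 and 13.4 in GMP CTRL. Every LSK library lay above every GMP library, and Hoxa9 rose in LSK against GMP by a log2 fold change of 1.33 ± 0.17 in KO (SE, adjusted p = 5.62e-05) and 2.20 ± 0.21 in CTRL (adjusted p = 1.49e-05). Hoxa7 (ENSMUSG00000038236, chr6:52214491-52221854, minus strand), its anterior neighbour, was at 23.7, 24.6 and 26.8 CPM in LSK KO, 25.3 and 26.4 in LSK CTRL, 9.07, 10.3 and 8.70 in GMP KO, and 6.57 and 5.16 in GMP CTRL. It followed the same order, with log2 fold changes of 1.42 ± 0.13 in KO and 2.14 ± 0.16 in CTRL (adjusted p = 5.39e-06 and 3.36e-06). Hoxa10 (ENSMUSG00000000938, chr6:52231197-52240854, minus strand), the last expressed gene of the cluster, was at 14.4, 16.5 and 15.6 CPM in LSK KO, 17.6 and 14 in LSK CTRL, 0.587, 0.839 and 0.443 in GMP KO, and 0.353 and 0.0968 in GMP CTRL. Its log2 fold change of 4.63 ± 0.37 in KO and 6.12 ± 0.50 in CTRL was the largest among the Hoxa genes (adjusted p = 2.63e-06 and 5.88e-06).

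The central genes were intermediate. Hoxa5, a regulator of early blood lineage choice, was at 8.45, 6.09 and 9.02 CPM in LSK KO, 7.16 and 9.65 in LSK CTRL, 1.49, 1.64 and 1.07 in GMP KO, and 0.719 and 1.21 in GMP CTRL. Hoxa6 was at 5.23, 4.30 and 5.19 CPM in LSK KO, 3.50 and 3.12 in LSK CTRL, 0.675, 0.929 and 0.630 in GMP KO, and 0.865 and 0.508 in GMP CTRL. Both had every LSK library above every GMP library, with log2 fold changes in KO and CTRL of 2.48 ± 0.29 and 3.12 ± 0.36 for Hoxa5, and 2.71 ± 0.29 and 2.27 ± 0.36 for Hoxa6, all called. Among the anterior genes Hoxa3 was at 4.57, 4.90 and 4.82 CPM in LSK KO, 5.57 and 5.75 in LSK CTRL, 0.531, 0.812 and 0.105 in GMP KO, and 0.0244 and 0.169 in GMP CTRL. Hoxa2 was lower throughout, at 0.885, 0.969 and 0.677 CPM in LSK KO, 0.853 and 0.838 in LSK CTRL, 0.221, 0.361 and 0.128 in GMP KO, and 0.122 and 0.181 in GMP CTRL. Both rose in LSK, Hoxa3 by 3.29 ± 0.63 in KO and 5.84 ± 0.91 in CTRL, and Hoxa2 by 1.81 ± 0.44 and 2.46 ± 0.56 on the log2 scale. Hoxa4 stood apart from its neighbours, at 0.543, 0.817 and 0.733 CPM in LSK KO, 0.609 and 1.36 in LSK CTRL, 0.775, 0.731 and 0.303 in GMP KO, and 0.804 and 0.363 in GMP CTRL. Its populations overlapped and it was not called (0.21 ± 0.50 in KO and 0.75 ± 0.60 in CTRL, adjusted p = 0.734 and 0.308).

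In the Hoxb cluster the peak gene changed least. Hoxb4 (ENSMUSG00000038692, chr11:96318267-96321638, plus strand) was at 8.25, 8.93 and 10.5 CPM in LSK KO, 6.76 and 9.25 in LSK CTRL, 6.00, 6.65 and 6.16 in GMP KO, and 4.98 and 6.53 in GMP CTRL. It rose by a log2 fold change of 0.56 ± 0.19 in KO (adjusted p = 0.0238), a call lost without GMP KO-178 (0.53, adjusted p = 0.0642) and without LSK KO-1334 (0.46, adjusted p = 0.0985), and in CTRL it missed the threshold (0.48 ± 0.23, adjusted p = 0.0990). Its anterior neighbour Hoxb3 was at 2.46, 2.94 and 2.96 CPM in LSK KO, 2.50 and 2.86 in LSK CTRL, 0.387, 0.343 and 0.222 in GMP KO, and 0.256 and 0.363 in GMP CTRL. Hoxb3 rose by 3.12 ± 0.32 in KO and 3.11 ± 0.39 in CTRL, but 52.9% of its exon bases overlap the antisense gene Hoxb3os, and whether reads were counted by strand is unknown here. The same holds for Hoxb2 (27.3% of exon bases), Hoxa7 (20.4%) and Hoxa4 (16.0%), which overlap genes on the other strand. Hoxa3 (27.1%) and Meis1 (18.3%) overlap genes on both strands, and Hoxa2 (15.0%) on its own strand. Of the members near 0, Hoxd3 (62.85%) and Hoxa11 (34.98%) also overlap other genes. On the other side of Hoxb4, Hoxb5, a marker of long-term stem cells, was at 1.51, 1.63 and 2.20 CPM in LSK KO, 1.07 and 2.05 in LSK CTRL, 0.0886, 0.153 and 0.0350 in GMP KO, and 0 in both GMP CTRL libraries. It rose by 4.21 ± 0.55 in KO, and in CTRL the 106 LSK reads against 0 in GMP made it at least 86.3-fold higher, set against a floor of 3 counts over the group.

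The outer Hoxb genes were low in LSK and close to 0 in GMP. Hoxb2 was at 0.942, 1.15 and 1.38 CPM in LSK KO, 0.670 and 1.13 in LSK CTRL, 0.0664, 0.0180 and 0.0700 in GMP KO, and 0.0122 and 0.0242 in GMP CTRL. Its log2 fold change was 4.47 ± 0.54 in KO, and in CTRL, with 3 GMP reads, the ratio was 49.7 (95% interval 16.2 to 247, counting error only). Hoxb6 was at 0.885, 1.21 and 1.27 CPM in LSK KO, 1.43 and 1.94 in LSK CTRL, 0.0111, 0.0541 and 0.128 in GMP KO, and 0.0731 and 0.0484 in GMP CTRL, and rose by 4.10 ± 0.61 in KO and 4.75 ± 0.77 in CTRL. Hoxb2 and Hoxb6 kept every LSK library above every GMP library, but both were let in through their LSK reads alone, as named above. Hoxb7 was at 0.257, 0.242 and 0.423 CPM in LSK KO, 0.457 and 0.405 in LSK CTRL, 0, 0.0992 and 0.0117 in GMP KO, and 0 in both GMP CTRL libraries, which made it at least 23.6-fold higher in LSK CTRL. In KO Hoxb7 rose by 2.91 ± 0.94 on the log2 scale (adjusted p = 0.0229), which was lost without LSK KO-1334 (2.62, adjusted p = 0.0773). Most of its GMP reads came from KO-179, without which the value was 5.31. Hoxb8 was at 0.114, 0.272 and 0.0846 CPM in LSK KO and 0.365 and 0.116 in LSK CTRL, and Hoxb9 at 0.0286, 0.363 and 0.113 in LSK KO and 0.122 and 0.144 in LSK CTRL, with 0 reads in all GMP libraries. Against the floor of 3 counts Hoxb8 was at least 14.8-fold higher in LSK KO and at least 13.0-fold in LSK CTRL, and Hoxb9 at least 15.7-fold and at least 7.33-fold. The call of Hoxb9 in CTRL (adjusted p = 0.0281) was lost without any 1 of the 4 CTRL libraries (adjusted p = 0.0673 to 0.0847). Of the Hoxc genes Hoxc6 alone was tested, at 0.257, 0.151 and 0.0564 CPM in LSK KO, 0.0609 and 0.607 in LSK CTRL, 0 in all 3 GMP KO libraries, and 0.0487 and 0.0484 in GMP CTRL. Hoxc6 was at least 14.8-fold higher in LSK KO than in GMP KO, and in CTRL its difference was not called (2.74 ± 1.15, adjusted p = 0.0728).

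**Figure D2:**
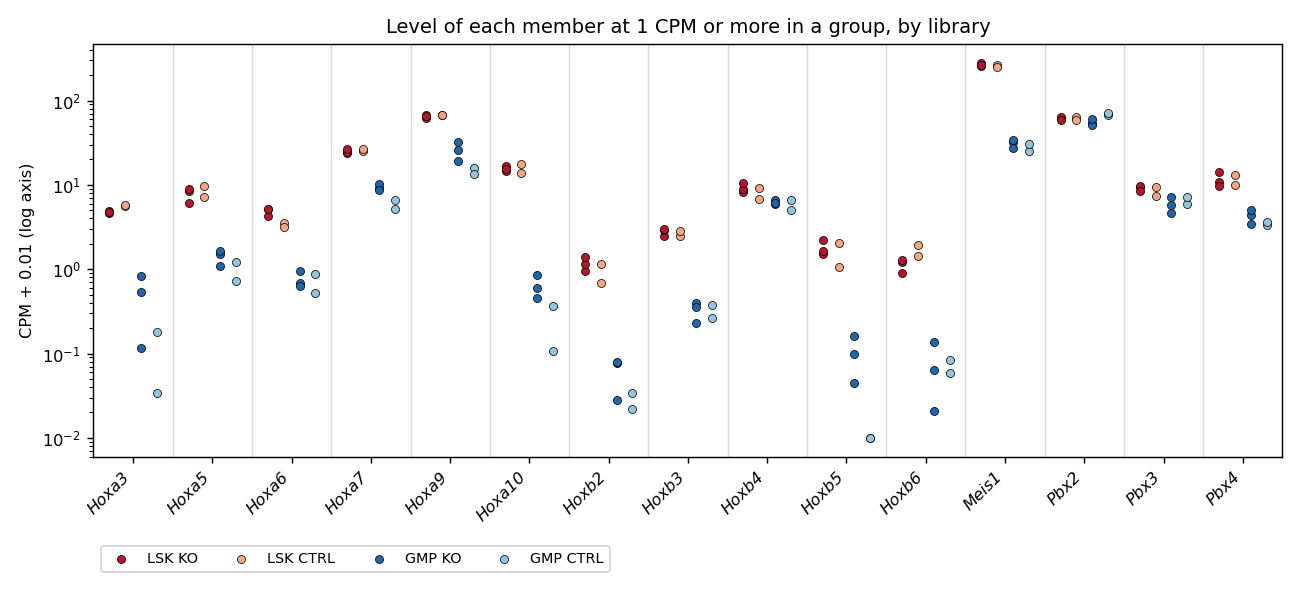
Level of the 15 members at 1 CPM or more in a group, as CPM + 0.01 on a log axis; each dot is a library, and within a gene the groups run LSK KO, LSK CTRL, GMP KO, GMP CTRL. Meis1 lies at 247 to 281 CPM in LSK against 24.9 to 34.4 CPM in GMP, while the Pbx2 libraries of both populations lie between 51.4 and 70.4 CPM.

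Among the cofactors Meis1 rose strongly in LSK and Pbx4 less so, in both genotypes, while Pbx2 and Pbx3 differed little. Meis1 (ENSMUSG00000020160, chr11:18879817-19018985, minus strand) was at 259, 281 and 262 CPM in LSK KO, 266 and 247 in LSK CTRL, 32.6, 34.4 and 27.4 in GMP KO, and 24.9 and 30.2 in GMP CTRL. The populations did not overlap, and Meis1 rose by 3.09 ± 0.11 in KO and 3.22 ± 0.14 in CTRL (adjusted p = 2.63e-08 and 1.50e-07). Its paralogues were scarce: Meis3 was at 0.543, 0.757 and 0.677 CPM in LSK KO, 0.426 and 0.751 in LSK CTRL, 0.122, 0.0631 and 0 in GMP KO, and 0.0122 and 0.0121 in GMP CTRL. Meis3 rose by 3.36 ± 0.78 in KO, and in CTRL, with 2 GMP reads, the ratio was 48.8 (95% interval 12.7 to 417). Meis2 was at 0.200, 0.394 and 0.113 CPM in LSK KO and 0.0304 and 0.0867 in LSK CTRL, with 0 reads in GMP KO and 1 read in GMP CTRL. It was at least 22.2-fold higher in LSK KO than in GMP KO, and in CTRL 4 reads against 1 gave a ratio of 9.77 (95% interval 0.967 to 481), not separable from 1 at this depth.

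Of the PBX genes, Pbx4 was at 10.7, 9.66 and 14.2 CPM in LSK KO, 9.84 and 13.2 in LSK CTRL, 4.35, 4.99 and 3.40 in GMP KO, and 3.38 and 3.67 in GMP CTRL. It rose by 1.44 ± 0.22 in KO and 1.71 ± 0.27 in CTRL (adjusted p = 2.06e-04 and 3.73e-04), with no overlap. Pbx3, a partner of HOXA9 in leukaemia, was at 9.31, 9.63 and 8.46 CPM in LSK KO, 9.32 and 7.34 in LSK CTRL, 5.70, 7.11 and 4.63 in GMP KO, and 5.93 and 7.14 in GMP CTRL. It rose by 0.65 ± 0.20 in KO (adjusted p = 0.0143) and was not called in CTRL (0.35 ± 0.24, adjusted p = 0.233). Pbx2 (ENSMUSG00000034673, chr17:34591266-34597400, plus strand) was at 62.0, 63.8 and 59.5 CPM in LSK KO, 63.5 and 58.7 in LSK CTRL, 53.7, 51.4 and 59.8 in GMP KO, and 66.6 and 70.4 in GMP CTRL. It was called in neither genotype (0.17 ± 0.09 in KO and -0.17 ± 0.11 in CTRL, adjusted p = 0.112 and 0.203).

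**Figure D3:**
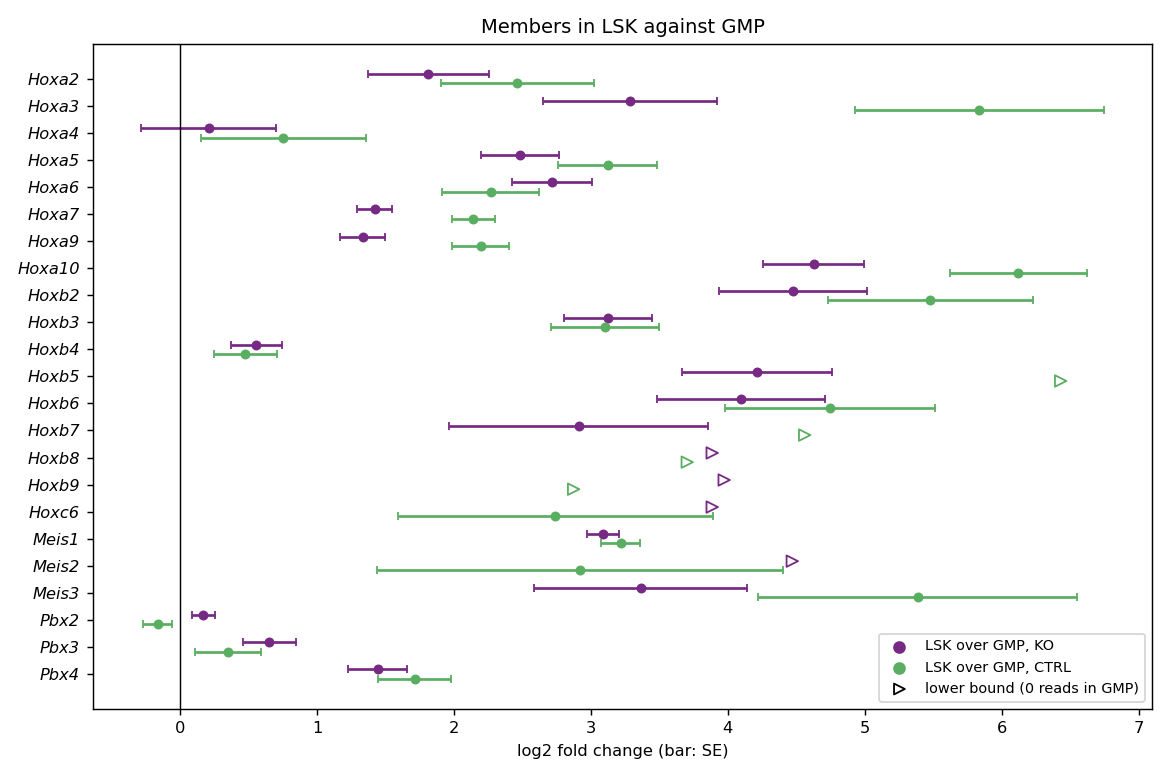
Log2 fold change of LSK over GMP for the 23 members tested, in KO (upper mark of each pair) and CTRL (lower mark); bars are SE, and open triangles are lower bounds where GMP had 0 reads. Meis1 lies near 3 in both genotypes, Hoxb4 and the Pbx2 and Pbx3 genes lie within 1 of 0, and Hoxa10 reaches 4.63 in KO and 6.12 in CTRL.

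In GMP, no member passed the test between Dnmt3a KO and CTRL. Of the 14 members tested, edgeR called 0 higher and 0 lower, where 0.0231% of the 17290 genes tested were called higher and 0.0116% lower. At an unadjusted p under 0.05 there were 3 (Hoxa9, Hoxa7 and Pbx2), where 13.8% of all genes reached that level. The fitted change was positive in 12 of 14, against 51.2% of all genes, and in 8 of 8 Hoxa genes, whose median log2 fold change was 0.65, against 0.01 over all genes. Neighbouring genes of a cluster are not independent of each other. The KO libraries lay wholly above the CTRL libraries for 3 of the 14 (Hoxa7, Hoxa9 and Hoxa10), where 17.7% of all genes did so. They lay wholly below for 1 of the 14 (Pbx2), where 14.6% of all genes did.

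Hoxa9 was at 25.7, 32.5 and 19.1 CPM in GMP libraries KO-178, KO-179 and KO-352, against 16.0 and 13.4 CPM in CTRL-346 and CTRL-350. KO-352 lay nearest to the CTRL libraries, and the log2 fold change was 0.80 ± 0.24 (edgeR adjusted p = 0.311). Hoxa7, at 9.07, 10.3 and 8.70 CPM in KO and 6.57 and 5.16 CPM in CTRL, differed by 0.66 ± 0.21 on the log2 scale (adjusted p = 0.313). DESeq2, run as an alternative, called both genes, with a log2 fold change of 0.78 for Hoxa9 (adjusted p = 0.0489) and 0.64 for Hoxa7 (adjusted p = 0.0437), where it called 2.68% of all genes higher and 1.71% lower. With limma-voom 0 members were called in either direction, where 0% of all genes were. Hoxa10 was low, at 0.587, 0.839 and 0.443 CPM in KO and 0.353 and 0.0968 CPM in CTRL, and its log2 fold change of 1.45 ± 0.66 did not pass (adjusted p = 0.382). It was 2.68 without CTRL-346 and 0.78 without CTRL-350.

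The next members by p overlapped between the genotypes. Hoxa3 was at 0.531, 0.812 and 0.105 CPM in KO and 0.0244 and 0.169 CPM in CTRL, with KO-352 inside the CTRL range (2.31 ± 1.07, adjusted p = 0.390). That change was 4.20 without CTRL-350 and 1.52 without CTRL-346. Hoxa5 was at 1.49, 1.64 and 1.07 CPM in KO and 0.719 and 1.21 CPM in CTRL (0.53 ± 0.38, adjusted p = 0.542), and its change was 0.92 without CTRL-350 and 0.22 without CTRL-346. Pbx2, in contrast, was at 53.7, 51.4 and 59.8 CPM in KO and 66.6 and 70.4 CPM in CTRL, every KO library below both CTRL libraries (-0.33 ± 0.11, adjusted p = 0.317). The largest p-values were those of Hoxa4, Hoxb3 and Hoxa6, with changes of 0.03 ± 0.58, 0.03 ± 0.49 and 0.10 ± 0.42. Meis1, Hoxb4, Hoxa2, Pbx4 and Pbx3 lay between, with changes of -0.18 to 0.64.

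**Figure D4:**
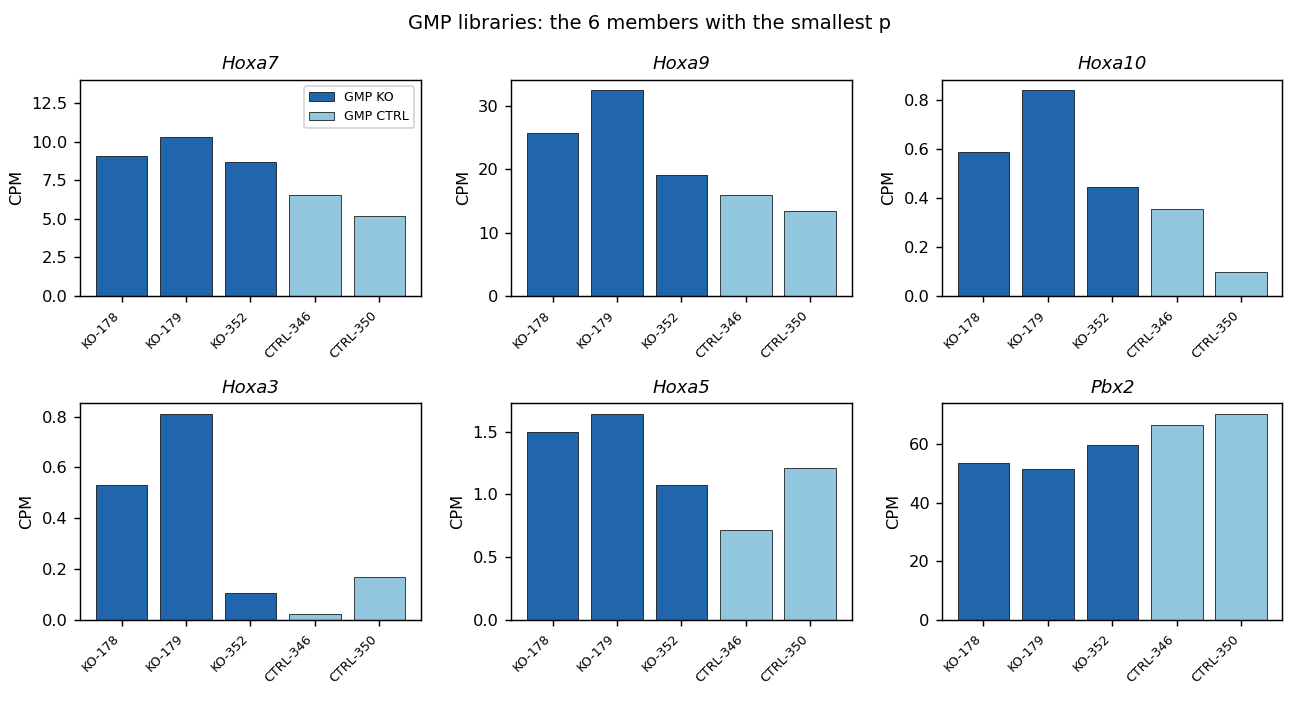
Level in CPM in each GMP library (3 KO, then 2 CTRL) of the 6 members with the smallest p between KO and CTRL; each bar is 1 library and each panel has its own axis from 0. KO-179 has the highest bar for all 5 Hoxa genes and the lowest for Pbx2.

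Members under the filter in GMP gave few reads. Hoxb5 had 28 reads in the 3 KO libraries, at 0.0886, 0.153 and 0.0350 CPM, and 0 in both CTRL libraries, which made it at least 5.36-fold higher in KO. Hoxb7 had 12 reads in KO, 11 of them in KO-179, and 0 in CTRL. Hoxc6 had 0 in KO and 8 in CTRL, at least 4.64-fold lower. These bounds set the group at 0 reads to 3 counts, leave out the counting error of the other group, and came with no edgeR test. DESeq2 gave these genes no adjusted p. Meis3 had 18 reads in KO and 2 in CTRL, a ratio of 5.17 (95% interval 1.24 to 45.9), and Hoxb2 14 and 3, a ratio of 2.68 (0.748 to 14.5).

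Cell markers were also compared between the GMP genotypes, and their sums overlapped for some lists and not for others. The 7 stem cell markers, which are higher in LSK as the Hoxa genes are, summed to 313 (KO-178), 289 (KO-179) and 256 CPM (KO-352), against 247 and 244 CPM in the CTRL libraries, with none of the 7 at 0. Kit, the receptor used in both gates, made up most of these sums, at 244 to 295 CPM in KO and 230 to 234 CPM in CTRL. Of the 7, Procr (-1.29) and Tek (-0.09) had negative changes and the other 5 positive ones, 0 of them called. The 8 GMP markers summed to 16161 to 22151 CPM in KO and 20286 to 26279 CPM in CTRL, with 7 of 8 changes negative. Markers of mast cells, basophils and eosinophils summed to 771 to 1047 CPM in KO and 1173 to 3965 CPM in CTRL, and all 6 had negative changes, 0 of them called. T and NK cell markers summed to 276 to 362 CPM in KO and 422 to 508 CPM in CTRL, though 3 of the 4 tested had positive changes. Stromal and endothelial markers were positive in 6 of 6 tested and summed to 19.2 to 44.6 CPM in KO and 20.2 to 30.3 CPM in CTRL. Neutrophil markers were positive in 6 of 6, at 661 to 5004 CPM in KO and 1052 to 2585 CPM in CTRL, and B cell markers negative in 4 of 4 tested, at 35.7 to 47.4 CPM in KO and 41.2 to 42.1 CPM in CTRL. None of these markers was called, where edgeR called 0.0231% of all genes higher and 0.0116% lower. Reads outside annotated genes made up 15.5%, 16.1% and 10.3% of the reads listed in the KO libraries, in the same order, against 8.50% and 14.2% in CTRL. With that share as a term in the fit the change was 0.66 for Hoxa9, 0.70 for Hoxa7, 1.62 for Hoxa10, 1.19 for Hoxa3 and 0.26 for Hoxa5. The part of the cell markers in these values was not tested.

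In LSK, the levels of the main Hox genes and cofactors lay close together in KO and CTRL. Of the 19 members tested, edgeR called 0 higher and 0 lower, where 0.0116% of the 17238 genes tested were called in each direction. At an unadjusted p under 0.05 there was 1, Hoxa6, where 2.83% of all genes reached that level. DESeq2 and limma-voom also called 0 members, where DESeq2 called 0.0382% of all genes higher and 0.0420% lower, and limma-voom 0.0116% in each direction. The median log2 fold change of the members was 0.01, against 0.00 over all genes, with 11 positive, where 50.8% of all genes were. The most abundant members had narrow errors: the change was 0.07 ± 0.08 for Meis1, -0.04 ± 0.08 for Hoxa9, -0.04 ± 0.11 for Hoxa7, 0.02 ± 0.08 for Pbx2 and -0.02 ± 0.14 for Hoxa10.

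Hoxa6, a central Hoxa gene, was at 5.23, 4.30 and 5.19 CPM in LSK KO-1327, KO-1333 and KO-1334, against 3.50 and 3.12 CPM in CTRL-1326 and CTRL-1330. It was the only tested member with every KO library above both CTRL libraries, where 6.34% of all genes were so placed, and its change of 0.58 ± 0.20 did not pass (edgeR adjusted p = 0.9998). Below both CTRL libraries lay Hoxb6, at 0.885, 1.21 and 1.27 CPM in KO and 1.43 and 1.94 CPM in CTRL, and Hoxa3, at 4.57, 4.90 and 4.82 CPM in KO and 5.57 and 5.75 CPM in CTRL, where 7.67% of all genes were so placed. Their changes were -0.58 ± 0.33 and -0.24 ± 0.17 (adjusted p = 0.9998 each). Hoxa4 was at 0.543, 0.817 and 0.733 CPM in KO and 0.609 and 1.36 CPM in CTRL (-0.50 ± 0.45), a value that turned to 0.22 without CTRL-1330. Hoxb4 was at 8.25, 8.93 and 10.5 CPM in KO and 6.76 and 9.25 CPM in CTRL (0.21 ± 0.19), and Hoxb2 at 0.942, 1.15 and 1.38 in KO and 0.670 and 1.13 in CTRL (0.37 ± 0.38), and both overlapped. Without CTRL-1326 the change was -0.018 for Hoxb4 and 0.03 for Hoxb2, and without CTRL-1330 it was 0.48 and 0.81. Of members under the filter in LSK, Meis2 had 24 reads in KO, at 0.200, 0.394 and 0.113 CPM, and 4 in CTRL, at 0.0304 and 0.0867 CPM. Its ratio was 3.91, with every KO library above both CTRL libraries and no edgeR test. DESeq2 did not call it (log2 fold change 1.99 ± 1.34, adjusted p = 0.99995). The others with more than a few reads were Hoxb8 with 16 in KO and 16 in CTRL, Hoxb9 with 17 in KO and 9 in CTRL, and Hoxc6 with 16 in KO and 23 in CTRL.

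**Figure D5:**
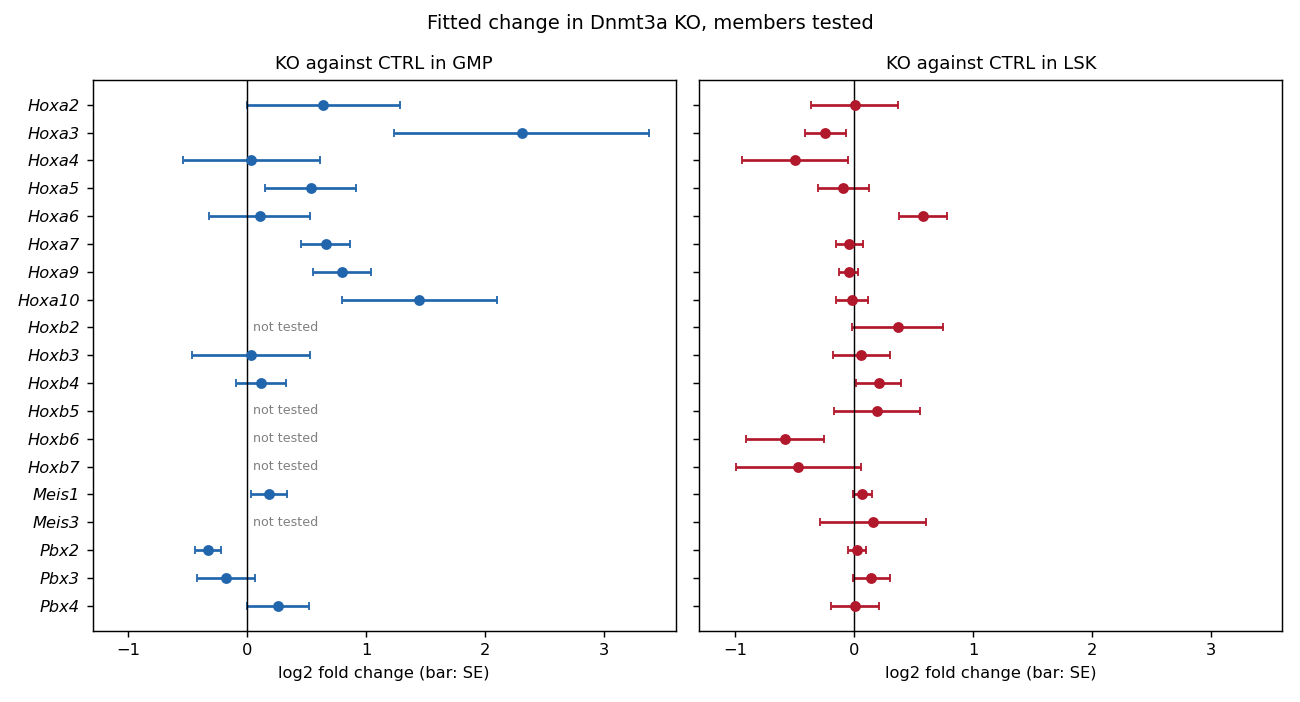
Log2 fold change of KO over CTRL for each member tested, in GMP (left) and LSK (right); dots are edgeR fits and bars SE. In GMP all 8 Hoxa genes lie at or above 0 and Pbx2 lies at -0.33, while in LSK Meis1, Hoxa7, Hoxa9, Hoxa10, Pbx2 and Pbx4 lie within 0.1 of 0.

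The difference between the KO effects, LSK minus GMP, was tested in a fit of all 10 libraries. Of the 23 members tested, 0 were called higher and 0 lower, where 0.00531% of the 18836 genes were called higher and 0.0212% lower, so an unequal effect of KO was not shown for any member. DESeq2 and limma-voom called 0 members as well, where DESeq2 called 0.249% of all genes higher and 1.10% lower, and limma-voom 0% and 0.0106%. At an unadjusted p under 0.05 there were 7 (Hoxb5, Hoxa7, Hoxa9, Hoxa10, Hoxa3, Pbx2 and Hoxb7), where 10.1% of all genes reached that level. The difference was -0.72 ± 0.20 for Hoxa7 (edgeR adjusted p = 0.341), -0.86 ± 0.26 for Hoxa9 (0.353), -1.5 ± 0.56 for Hoxa10 (0.444), -2.55 ± 1.02 for Hoxa3 (0.463) and 0.33 ± 0.14 for Pbx2 (0.469). Hoxb5, with 0 reads in GMP CTRL, had a fitted difference of -5.39 (adjusted p = 0.328) that depends on how the fit treats a group at 0. Without GMP KO-352, 3 members were called lower: Hoxa9 (-1.02, adjusted p = 0.0339), Hoxa3 (-3.01, adjusted p = 0.0486) and Hoxb5 (adjusted p = 0.0486). The share of all genes called without that library is not given here, so these calls have no background to be set against. These values use the same GMP libraries as the comparison within GMP and add no separate evidence to it.

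Non-coding genes of the Hox clusters had positive fitted changes in GMP KO, and none was called, where edgeR called 0.0231% of all genes higher. Of 10 listed, 4 were tested in GMP, with a median log2 fold change of 1.38. Hoxb3os, antisense to Hoxb3, was at 1.94, 2.31 and 1.53 CPM in GMP KO and 0.463 and 0.786 CPM in GMP CTRL (1.62 ± 0.39, edgeR adjusted p = 0.270). Hoxb5os was at 0.122, 0.235 and 0.0817 CPM in KO and 0.0244 and 0.0242 CPM in CTRL (2.52 ± 0.87, adjusted p = 0.327), and Hoxaas3, antisense within the Hoxa cluster, at 1.31, 2.44 and 1.02 CPM in KO and 0.658 and 0.774 CPM in CTRL (1.14 ± 0.46, adjusted p = 0.355). For these 3 every KO library lay above both CTRL libraries, as did 17.7% of all genes. In LSK KO against CTRL, 4 were tested and 0 called, and the smallest p-values belonged to Hoxb3os (0.56 ± 0.38), Hoxaas2 (0.45 ± 0.43) and Hoxb5os (0.06 ± 0.34). Hoxaas3 overlaps 20.4% of the exon bases of Hoxa7 on the other strand.

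Among 15 genes known as HOXA9 and MEIS1 targets in mouse leukaemia models, 0 were called in GMP and 0 in LSK. Of all genes, 0.0231% were called higher and 0.0116% lower in GMP, and 0.0116% in each direction in LSK. Flt3, a growth factor receptor of early progenitors, was at 101, 178.3 and 82.2 CPM in GMP KO and 15.5 and 23.5 CPM in GMP CTRL (2.62 ± 0.38, edgeR adjusted p = 0.190). Pim1, a survival kinase, was at 174, 110 and 89.5 CPM in GMP KO and 46.8 and 33.6 CPM in GMP CTRL (1.61 ± 0.31, adjusted p = 0.254). Camk2d, a calcium-dependent kinase, was at 30.3, 25.6 and 20.7 CPM in GMP KO and 14 and 11.9 CPM in GMP CTRL (0.97 ± 0.20, adjusted p = 0.260). All 3 had every KO library above both CTRL libraries, as did 17.7% of all genes. Of the 15 genes 4 lay wholly above and 3 wholly below, where 14.6% of all genes lay wholly below. Fitted changes were positive in 9 and negative in 6, with a median of 0.13. In LSK the smallest p-values were those of Id2 (-0.50 ± 0.24), Sox4 (-0.13 ± 0.10) and Cd34 (-0.14 ± 0.11), each with an adjusted p of 0.9998, and 12 of 15 were negative with a median of -0.04.

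Chromatin regulators known to hold Hox genes on or off were not called in either population, where few genes were called at all. In GMP, edgeR called 0.0231% of all genes higher and 0.0116% lower, and in LSK 0.0116% in each direction. Of 14 trithorax and MLL complex genes, which keep Hox genes active, 0 were called in GMP, and the smallest p-values were those of Mllt3 (10.8, 12.2 and 9.71 CPM in KO, 15.0 and 15.7 CPM in CTRL, -0.51 ± 0.17), Men1 (-0.67 ± 0.24) and Mllt1 (-0.53 ± 0.22), at adjusted p-values of 0.319, 0.334 and 0.362. Of 18 Polycomb and related genes, most of them known for keeping Hox genes silent but with the demethylases Kdm6a and Kdm6b that remove the Polycomb mark, 0 were called in GMP, led by Cbx8 (8.29, 6.53 and 14.3 CPM in KO, 19.4 and 17.1 CPM in CTRL, -0.92 ± 0.32, adjusted p = 0.331), Ring1 (-0.32 ± 0.15) and Suz12 (0.19 ± 0.11). The GMP KO libraries lay wholly below the CTRL libraries for 3 of the 14 and wholly above for 1. Of the 18, 2 lay wholly below and 2 wholly above, where 14.6% of all genes lay below and 17.7% above. In LSK 0 genes of either list were called. The smallest p-values there belonged to Mllt1 (0.13 ± 0.08), Men1 (0.08 ± 0.08) and Rbbp5 (0.07 ± 0.07), and to Phc1 (-0.14 ± 0.10), Jarid2 (-0.09 ± 0.07) and Asxl1 (-0.07 ± 0.07). Of 8 further genes, TALE and Cdx genes together with Pbxip1, which encodes a PBX-interacting protein, 4 were tested in each population and 0 called, with changes of -0.22 ± 0.11 for Pknox1, 0.15 ± 0.12 for Pbxip1 and 0.07 ± 0.10 for Tgif1 in GMP, and 0.08 ± 0.09, -0.09 ± 0.09 and -0.11 ± 0.09 in LSK.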

How the data were processed

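Total RNA was made into stranded, ribosome-depleted libraries, per the labels' protocols. The authors deposited whole-number counts per Ensembl gene ID. Per the submitters' processing notes, the build was mm10 (GRCm38) and the tools were DESeq2 1.4.5, DESeq 1.18.0, HTSeq 0.5.3p3 and STAR, with no roles named. The annotation release and the strand setting were not stated there or in the labels. The deposited normalized tables hold a signal, each library of raw counts over its own size factor, used only to recover those factors. Lines of the GMP table that name no gene were left out: reads outside annotated genes made up 8.50% to 16.1% of the reads listed. Reads that align to several places or to overlapping genes can be lost or split in such counts, which touches the overlapping Hox genes named in the text.

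The test was that of edgeR 4.0.16 in R 4.3.3: filterByExpr with a minimum count of 10, TMM, glmQLFit and glmQLFTest, two-sided, Benjamini-Hochberg over all genes tested, threshold 0.05. KO and CTRL were compared within each population. LSK against GMP, and the difference of KO effects, came from 1 fit of all 10 libraries over the gene IDs in both tables, whose TMM library sizes also give the CPM. SE is the fitted change divided by the square root of its F statistic. Alternatives were DESeq2 1.42.0, limma-voom (limma 3.58.1), other scalings, no filter, added terms and leaving out each library. Of these, total gene counts without TMM were added after seeing the data. The edgeR steps were tested on simulated data.

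The members and gene lists were chosen with earlier results of these data known. A member is given in every library of a comparison where it was called, was among the 6 smallest p-values, or had separated genotypes and 1 CPM or more in a group. From other lists up to 3 genes with the smallest p were taken. Of the stem cell marker list, 1 gene is not reported here and is in none of the sums printed. Exon lengths and coordinates (1-based) are from GENCODE vM21, GRCm38, with all exons merged. Promoter windows are from RefSeq, matched by symbol. Libraries were grouped by title, and no label used here says that each is a separate animal, so p-values reflect only the spread between libraries, which may be technical. Intervals and floors of 3 counts cover counting error only, since reads are not independent molecules.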

Additional observations from a re-analysis of the deposited data

How the results depend on the processing

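No paired analysis was possible because no title number occurs in both of the groups compared. Across the alternatives, 120 of the 122 recomputed counts of called members stayed within 1.5 times the count reported. In KO against CTRL the counts were 0 with each library left out, where few genes are called at all, so agreement there says little. In LSK against GMP, members called higher numbered 16 to 21 in KO and 16 to 17 in CTRL as each library was left out. No share of all genes is set beside these counts, which include members let in through their LSK reads alone. In KO, Hoxb8, Hoxb9, Hoxc6 and Meis2 were not tested in every setting, so part of that range can come from the filter. Members called higher in GMP KO went to 2 with DESeq2 (Hoxa7 and Hoxa9), against 0 with edgeR and 0 with limma-voom. Members called lower for the difference between KO effects numbered 0 to 3 when each library was left out, with 3 without GMP KO-352. The share of all genes called without KO-352 is not given here. The change of Hoxa4 in LSK ranged from -0.97 to 0.22 as each library was left out, reversing without CTRL-1330, and that of Hoxb4 in LSK from -0.018 to 0.48, reversing without CTRL-1326, neither called in any setting. Leaving out each library, Hoxa9 in GMP KO stayed between 0.59 and 0.98 and Hoxa7 between 0.47 and 0.86. Of the GMP values without KO-352, Hoxa9 was at 0.98 (adjusted p = 0.0582) and Hoxa7 at 0.71 (adjusted p = 0.122). Scaling by total gene counts without TMM shifted the median of all genes in LSK against GMP by 0.38 in KO and 0.41 in CTRL, and 22 and 21 members were then called higher, 0 lower. The share of all genes called under that scaling is not given here either. With sex as a term, Hoxa6 in LSK was at 0.60 and Hoxb6 at -0.66. The cause of these shifts was not tested. Members under 0.1 CPM rest on a few reads, and at 3 KO and 2 CTRL libraries small changes of such genes were not detectable.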
